A study of Mus musculus with 20 samples.

Results

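The 30 genes described here are transcripts that mark endothelial cells, the cells that line blood vessels, measured in mouse pancreatic islets with and without the P2Y14 receptor. They are a list of names, with no threshold on measured values, and each was found under its Ensembl identifier among the 26211 genes of the normalized read count table. The study sequenced messenger RNA from islets of P2Y14-knockout mice (10 libraries, numbered 1 to 10) and of wild-type mice (10 libraries, numbered 11 to 20), all of the strain C57BL/6 x 129S6. The receptor, whose gene is P2ry14, senses extracellular UDP and UDP-glucose and signals through G proteins, and the title of the series links it to insulin release and to smooth muscle. Islets were freed from the pancreas with an enzyme, picked by eye and cultured overnight, and the labels name no treatment for either group. The labels give neither the age and sex of the mice nor whether each library came from its own animal, nor how the knockout was made, so every p-value below measures spread between libraries, which may be technical.

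Islets are threaded by a dense bed of fenestrated capillaries, whose endothelial cells are held together by cadherin and claudin junctions and are fed by Vegf from beta cells, acting through the receptors Kdr and Flt1. Angiopoietins act on a further receptor pair, Tek and Tie1, and transcription factors of the Ets and Sox families keep the endothelial programme on. Islets kept in culture are known to lose endothelial cells gradually.

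The targeted gene checked the labels. The knockout mean of P2ry14, on chromosome 3, was 51.2 ± 31.4 normalized read counts (SD, n = 10). The wild-type mean was 151 ± 67.4 (SD, n = 10), and the difference of -99.4 had p = 0.00013 (two-sided permutation test with 100000 resamples). In limma its log2 fold change was -1.97 with an adjusted p of 0.24, which does not pass the threshold used for the other genes. Its range was 0 to 113.5 in knockout and 79.7 to 262.1 in wild-type, so the groups overlapped. Depth ran from 34520628 to 199847246 reads over genes, and the median was 92323083 for knockout and 105776893 for wild-type libraries. Hormone genes were abundant, as the label of islets implies: 12 islet endocrine genes took 14.2% to 46.4% of the summed values of a library, and 20 acinar genes, which belong to the surrounding exocrine tissue, took 6.14% to 31.9%.

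The endothelial genes were read in nearly every library. All 30 passed the minimum mean normalized read count of 10, and Cldn5 alone was at 0 anywhere, in knockout 7 and wild-type 19. Their summed normalized read count was 46543 at the lowest, 65926 at the median and 122952 at the highest in knockout, and 50340, 65643 and 87286 in wild-type, so the ranges overlapped. Knockout 10 held the highest knockout value of 17 of the 30 genes, and wild-type 20 the highest wild-type value of 15. At the other end, knockout 2 and knockout 7 each held the lowest knockout value of 11 genes, and wild-type 19 the lowest wild-type value of 14. In whole-islet RNA, fewer endothelial cells and less RNA per endothelial cell cannot be told apart.

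Promoter sequences are shown for 5 of the genes, because the results below contrast Kdr and Flt1 with genes that moved with Pecam1. RefSeq windows on GRCm38.p6 were at hand for 14 of the 30 genes. Each line gives the 250 bases before an annotated start, 5′ to 3′ on the strand of the gene, with AGGAAG and its reverse complement CTTCCT, a form of the core that Ets factors bind, in capitals.
Kdr, chr5:75978456-75978705, minus strand: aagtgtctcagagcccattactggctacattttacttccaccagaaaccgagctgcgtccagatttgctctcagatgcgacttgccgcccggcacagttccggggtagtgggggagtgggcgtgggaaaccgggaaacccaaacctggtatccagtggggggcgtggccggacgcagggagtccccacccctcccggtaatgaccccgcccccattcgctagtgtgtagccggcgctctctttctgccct
Flt1, chr5:147726012-147726261, minus strand: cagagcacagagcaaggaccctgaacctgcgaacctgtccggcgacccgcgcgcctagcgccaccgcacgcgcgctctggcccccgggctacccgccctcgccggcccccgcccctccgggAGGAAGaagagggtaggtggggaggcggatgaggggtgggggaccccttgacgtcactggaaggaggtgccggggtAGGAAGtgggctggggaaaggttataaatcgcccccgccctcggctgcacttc
Tie1, chr4:118489850-118490099, minus strand: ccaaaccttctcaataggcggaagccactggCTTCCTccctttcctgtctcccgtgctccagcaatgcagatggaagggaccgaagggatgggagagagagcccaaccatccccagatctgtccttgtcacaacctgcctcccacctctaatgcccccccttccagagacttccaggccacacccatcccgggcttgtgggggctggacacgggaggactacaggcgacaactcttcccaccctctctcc
Egfl7, chr2:26580833-26581082, plus strand: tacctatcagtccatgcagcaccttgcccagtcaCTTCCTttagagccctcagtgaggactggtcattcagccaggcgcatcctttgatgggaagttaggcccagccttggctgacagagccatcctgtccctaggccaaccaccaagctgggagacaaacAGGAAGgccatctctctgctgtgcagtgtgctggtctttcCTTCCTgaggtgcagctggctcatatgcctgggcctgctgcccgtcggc
Cldn5, chr16:18776597-18776846, plus strand: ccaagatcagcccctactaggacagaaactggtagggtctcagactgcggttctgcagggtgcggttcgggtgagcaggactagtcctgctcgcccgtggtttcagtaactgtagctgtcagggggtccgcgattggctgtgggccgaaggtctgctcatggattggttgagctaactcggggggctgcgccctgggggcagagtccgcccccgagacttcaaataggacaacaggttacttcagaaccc
Neither string was in the Kdr or Cldn5 window, and Flt1, Tie1 and Egfl7 held 2, 1 and 3 copies. Egfl7 has 3 annotated starts, and the window shown was taken because it holds the string; the others shown have 1. A gene was counted as holding a string if any of its windows did. On either strand, AGGAAG was in 9 of the 14 genes (64.3%) and in 32.3% of the 27025 genes with a window. The other strings searched, on both strands, were the forkhead and Ets pair AACAGGAA, in 2 of 14 against 2.5% of genes, the Sox core ACAATG, in 1 against 12.2%, and the Gata core AGATAA, in 2 against 11.4%. TATAAA was in 3 of 14 against 14.3% of genes, and GGGCGG in 6 against 35.4%. AACAGGAA and AGGAAG can overlap. These matches describe the letters of the windows and show no binding. Of the 5 genes shown, Tie1 and Egfl7 held AGGAAG or CTTCCT and followed Pecam1, and Kdr held neither and did not follow it. Flt1, which did not follow Pecam1, held AGGAAG, while Cldn5, which did, held neither AGGAAG nor CTTCCT. Whether the strings bear on the covariation was not tested. Other forms of the Ets core on its own were not searched.

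**Figure D1:**
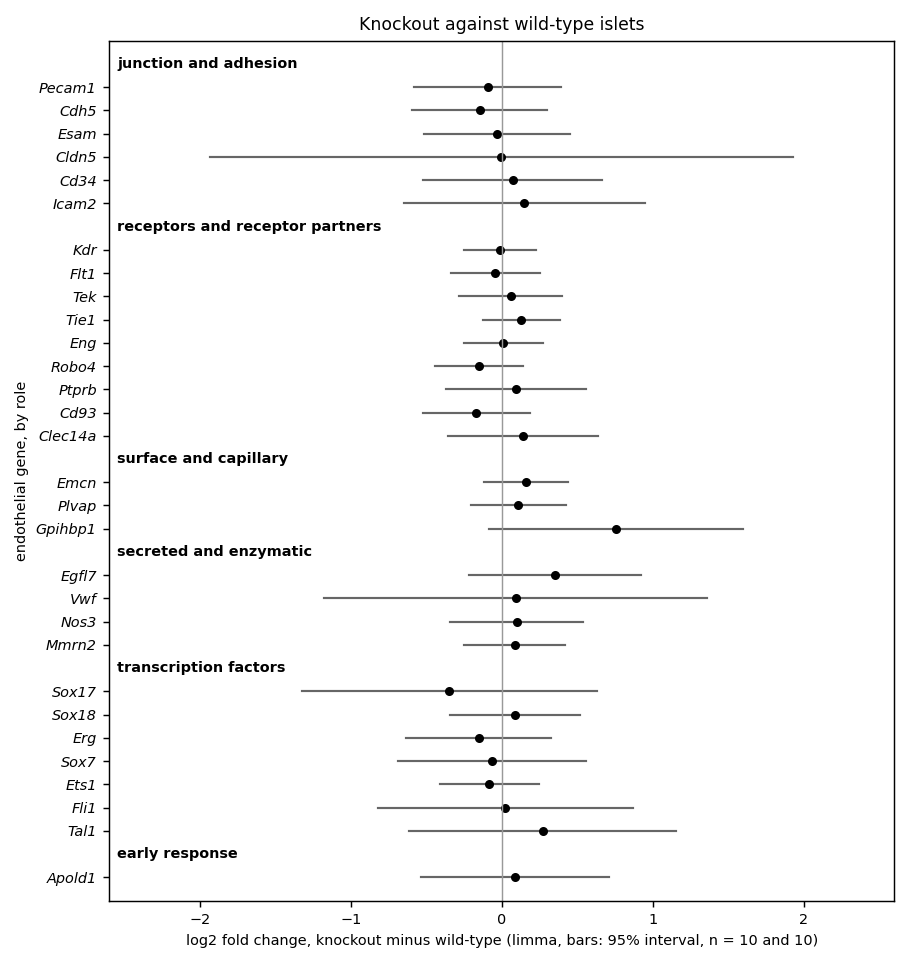
Log2 fold change of each endothelial gene, knockout minus wild-type (x axis), by role (y axis), with points for the limma estimate and bars for its 95% interval, n = 10 and 10. All 30 intervals cross 0, and the widest is that of Cldn5, from -1.93 to 1.93.

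Whether loss of P2Y14 changes the endothelial transcripts of islets was asked first. None of the 30 genes passed an adjusted p of 0.05 in either direction (limma, Benjamini-Hochberg over 17482 genes), against 0.28% of all genes tested, or 49 genes, 28 higher (0.16%) and 21 lower (0.12%) in knockout. None had an unadjusted p under 0.05 in limma either, against 8.94% of all genes. On reads recovered from the values, edgeR and DESeq2 called none of the 30 after adjustment, against 0.246% and 0.784% of genes, and each gave 1 gene, Gpihbp1, with an unadjusted p under 0.05, against 8.82% and 9.8%. The median log2 fold change of the 30 genes was 0.066, beside -0.0022 for all genes, with 18 positive and 12 negative estimates. The median lay between -0.042 without knockout 8 and 0.13 without knockout 2. Of all genes tested, 49.6% had positive estimates. Genes that covary over the same libraries tend to share a sign, so counts of signs here and below are descriptions. For 16 of the 30 genes the 95% interval stayed within a 1.5-fold change in both directions, and for 25 within a 2-fold change; the 1.5-fold share was 53.3%, beside 48.4% of all genes. A smaller difference, or for the others a larger one, was therefore not resolved.

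The 6 junction and adhesion genes were Pecam1, Cdh5, Esam, Cldn5, Cd34 and Icam2, and 2 of them had positive estimates. Pecam1, an adhesion molecule of endothelial contacts that leukocytes and platelets also carry, had normalized read counts of 6192 at the lowest, 11325 at the median and 26906 at the highest in knockout, and of 6878, 12310 and 24576 in wild-type. The lowest knockout library lay just under the lowest wild-type one and the highest just over the highest, and the log2 fold change was -0.095 (SE 0.24, limma adjusted p = 0.93). Cdh5, the cadherin of endothelial junctions, ran from 393 over 673 to 1225 in knockout and from 511 over 649 to 1319 in wild-type. The groups overlapped, with 3 knockout libraries below the lowest wild-type one and none above the highest, at a log2 fold change of -0.15 (SE 0.22, limma adjusted p = 0.87). Cldn5, the claudin of tight junctions, was sparse, with 0, 30.5 and 327 as its lowest, median and highest knockout values and 0, 28.1 and 180 in wild-type. The fold changes of Esam, Cd34, a sialomucin that blood progenitors share, and Icam2, a ligand for leukocyte integrins, lay at -0.033, 0.072 and 0.15 on the log2 scale.

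The 9 receptors and receptor partners were the most tightly measured group: 8 of their 9 intervals stayed within 1.5-fold. Kdr, the main signalling receptor for Vegf, had values of 4445, 5786 and 8183 (lowest, median, highest) in knockout and of 5032, 6148 and 7480 in wild-type. The knockout libraries spread on both sides of the wild-type ones, with 3 above the highest and 1 below the lowest. Its log2 fold change was -0.013 with a 95% interval of -0.25 to 0.23, a fold of 0.84 to 1.17. Flt1, which binds Vegf tightly and signals weakly, had values of 2485, 4050 and 6672 in knockout against 3154, 4223 and 5377 in wild-type. Here too the extremes were both knockout libraries, 7 the lowest and 5 the highest, and the log2 fold change was -0.043 (interval -0.34 to 0.25).

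Tek, the angiopoietin receptor, ran from 1201 over 1491 to 2924 in knockout and from 1126 over 1682 to 2210 in wild-type. Tie1, its partner without a clear ligand, ran from 1619 over 2420 to 3753 in knockout and from 1828 over 2225 to 3071 in wild-type. For Tie1, 8 of 10 knockout libraries were above the wild-type median, at a log2 fold change of 0.13 (SE 0.12, limma adjusted p = 0.79). Eng, a co-receptor for Bmp and Tgf-beta ligands, ran from 6177 over 8280 to 11071 in knockout and from 6350 over 7979 to 10659 in wild-type. Its log2 fold change of 0.0092, with an interval of -0.25 to 0.27, was among the 2 nearest to 0. Robo4, a guidance receptor that steadies vessel walls, had values of 1976, 3129 and 4503 in knockout and 2631, 3653 and 4273 in wild-type. It had 3 knockout libraries below the lowest wild-type one and 2 above the highest, at a log2 fold change of -0.15 (SE 0.14). Cd93, a lectin-like receptor that myeloid cells also carry, had 134, 250 and 300 in knockout and 185, 265 and 447 in wild-type, at -0.17 (SE 0.17). Ptprb, the phosphatase that damps Tek, and Clec14a, a lectin-like partner of Mmrn2, were at 0.092 and 0.14.

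All 3 surface and capillary genes had positive estimates, with none past the test. Emcn, a sialomucin of capillaries and veins that lies on chromosome 3 as P2ry14 does, had values of 2259, 3690 and 5596 in knockout and of 2631, 3382 and 3851 in wild-type. The knockout libraries were the wider group, with 4 above the highest wild-type library and 1 below the lowest, at a log2 fold change of 0.16 (SE 0.13, limma adjusted p = 0.75). Plvap, the protein of the diaphragms that close endothelial fenestrae, had 2622, 4368 and 7409 in knockout and 2961, 4137 and 5665 in wild-type. Its log2 fold change was 0.11 with an interval of -0.21 to 0.43. Gpihbp1, which carries lipoprotein lipase to the capillary surface, had the largest estimate of the 30 genes: its values were 96.0, 240 and 853 in knockout and 24.3, 156 and 281 in wild-type. There were 3 knockout libraries above the highest wild-type one, at a log2 fold change of 0.76 (SE 0.40, interval -0.083 to 1.595, limma p = 0.075, adjusted p = 0.61). Without wild-type 19, its lowest library, the log2 fold change was 0.48; edgeR gave 0.81 (adjusted p = 0.56) and DESeq2 0.82 (adjusted p = 0.44).

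The 4 secreted and enzymatic genes all had positive estimates too. Egfl7, a matrix protein secreted by endothelium, had values of 4270, 7585 and 30259 in knockout and of 4441, 6831 and 12062 in wild-type. Knockout 10 stood far above the rest, and the log2 fold change of 0.35 (SE 0.27, limma adjusted p = 0.73) was 0.16 without it. Vwf, the clotting factor that endothelium stores, ran from 389 to 6186 in knockout and from 110 to 4276 in wild-type, at 0.090 with an interval of -1.18 to 1.36. Nos3, which makes nitric oxide, and Mmrn2, a matrix ligand of Cd93 and Clec14a, lay at 0.097 and 0.085.

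Of the 7 transcription factors, 3 had positive estimates, and 4 of the 5 genes of lowest level per length were among them. Sox17, a factor of arterial endothelium, had values of 15.4, 94.95 and 342 in knockout and 48.0, 129 and 245 in wild-type. Its lowest 3 and its highest library were all knockout, and the limma log2 fold change was -0.35 (SE 0.47, adjusted p = 0.85). It was -0.076 without knockout 6, -0.025 in edgeR and -0.021 in DESeq2. Sox18 and Sox7, its close relatives, were at 0.086 and -0.065, and the Ets-family members Erg, Ets1 and Fli1 at -0.15, -0.084 and 0.023. Ets1, Fli1 and Tal1, a factor of blood and endothelial precursors, are also expressed in blood cells; Tal1 was at 0.27 (SE 0.43). Apold1, an early response gene of endothelium, was at 0.088 (SE 0.30).

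**Figure D2:**
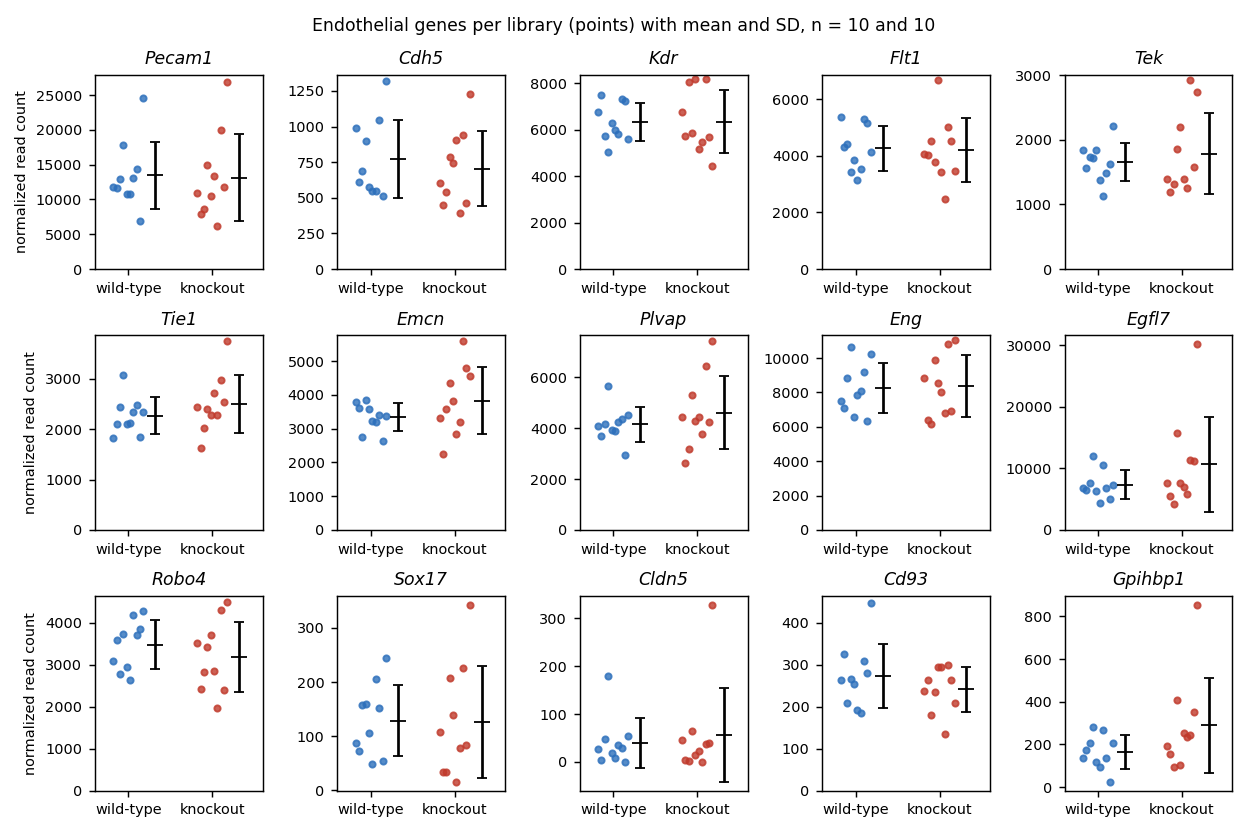
Normalized read count (y axes, linear) of the 15 endothelial genes given in full, by genotype, each point a library with the mean and SD beside it, n = 10 and 10. The genotypes overlap in every panel, and knockout 10 is the high point of Egfl7 (30259), Cldn5 (327) and Gpihbp1 (853).

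Levels and their spread ran over wide ranges within the 30 genes. As the mean normalized read count per kilobase of exon in the GENCODE basic set, Egfl7 was at 4797, Pecam1 at 3213, Eng at 2321, Plvap at 2206, Emcn at 1385 and Kdr at 1070. With the exons of all annotated transcripts these levels were 2514, 2132, 2048, 2205, 663 and 702, so the order among the high genes depends on the length taken. Sox7 (12.2), Tal1 (16.1) and Fli1 (17.9) were the lowest with either length. The SD of log2 values within a genotype was smallest for Kdr, at 0.26, then Tie1 (0.28) and Eng (0.28), and largest for Cldn5 (2.24), Vwf (1.49) and Sox17 (1.13). Its median was 0.54 over the 30 genes, 0.44 over all genes tested and 0.30 over genes with a mean over 1000, to which Kdr, Tie1, Eng and Vwf belong.

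**Figure D3:**
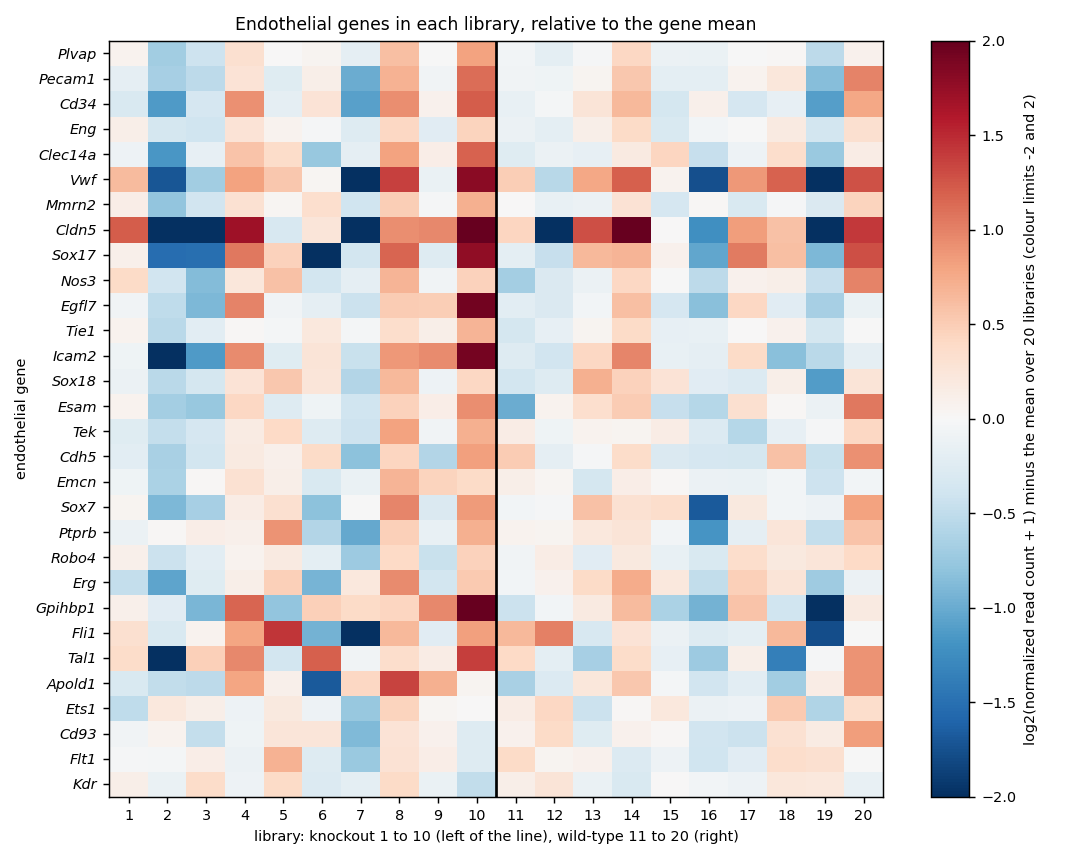
Log2(normalized read count + 1) of each endothelial gene (y axis) in each library (x axis) minus the mean of the gene over 20 libraries, with colours limited to -2 and 2. Knockout 10, which holds the highest knockout value of 17 genes, is red in most rows, knockout 2 and wild-type 19 are blue in most, and the bottom rows, Flt1 and Kdr, do not follow them.

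Covariation over the 20 libraries was then measured against Pecam1. Of the other 29 genes, 18 had a positive Pearson r with Pecam1 past an adjusted p of 0.05 and none a negative one, against 5.77% and 1.86% of all genes (two-sided permutation test with 100000 resamples, Benjamini-Hochberg over 17481 genes). The median r of the 29 genes was 0.672, beside 0.0144 for all genes, and 28 of the 29 were positive. Cd34 had the highest r at 0.919 (rho 0.850, permutation adjusted p = 0.0011 for r and 0.0020 for rho; 0.904 without the 2 libraries farthest from the Pecam1 median). Eng (0.870), Cldn5 (0.865), Cdh5 (0.855), Mmrn2 (0.849), Plvap (0.838) and Vwf (0.831) followed, each at a permutation p of 1e-05, the smallest that 100000 resamples give. These genes come from 4 roles: junctions, receptors, the capillary surface and secreted proteins.

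The count of 18 rested in part on single libraries. Without the 2 libraries farthest from the Pecam1 median, knockout 10 and wild-type 20, it was 10 of 29 (2.975% of all genes positive) at a median r of 0.588, and without knockout 10 alone it was also 10 (3.47%) at a median of 0.593. Spearman's rho gave 15. Within each genotype of 10 libraries the median r was 0.730 in knockout and 0.634 in wild-type, and 27 of the 29 genes had a positive r in both. The 11 genes that did not pass were Kdr, Flt1, Emcn, Ptprb, Erg, Sox7, Ets1, Fli1, Cd93, Apold1 and Tal1, which include 5 of the 7 transcription factors.

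Kdr and Flt1, the Vegf receptors, stood at the low end of this order. Kdr had the lowest r with Pecam1, -0.326 (rho -0.343, permutation adjusted p = 0.38 and 0.34; -0.039 without the 2 libraries), and Flt1 was at 0.023 (rho -0.095, permutation adjusted p = 0.96 and 0.83; 0.159 without them). The 2 receptors did covary with each other: r was 0.719 (rho 0.726, permutation adjusted p = 0.011 and 0.016), 0.630 without the 2 libraries farthest from the Kdr median, 0.733 in knockout and 0.695 in wild-type. Of the other 29 genes, Flt1 alone had a positive r with Kdr past the adjusted p, against 8.23% of all genes. Gpihbp1 alone had a negative one, -0.619 (permutation adjusted p = 0.027), against 8.35%. Kdr was taken as a second reference after its values had been seen. Flt1 was not taken as a reference, so its r with genes other than Pecam1 and Kdr was not tested. It was 0.60 with Ptprb, 0.55 with Cd93 and 0.52 with Fli1, and lowest with Gpihbp1 at -0.42. The median r of Flt1 with the other 29 genes was 0.079. In knockout 10, where Pecam1 reached its highest value of 26906, Kdr had its lowest, 4445. In knockout 8, with the next highest knockout value of Pecam1, 20017, Kdr was at 8158, near its highest of 8183.

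Among the 435 pairs of the 30 genes the median r was 0.534, beside -0.001 for all pairs of genes tested, and 55.6% of pairs had an r over 0.5, beside 5.56%. These are descriptions, since all pairs share the same libraries and size factors. The median over pairs was 0.612 in knockout and 0.421 in wild-type, a difference that was not tested, and 0.549 after the genotype means were removed. Plvap (0.693), Pecam1 (0.672) and Cd34 (0.669) had the highest median r with the other 29 genes, and Kdr (-0.139), Flt1 (0.079) and Cd93 (0.266) the lowest.

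**Figure D4:**
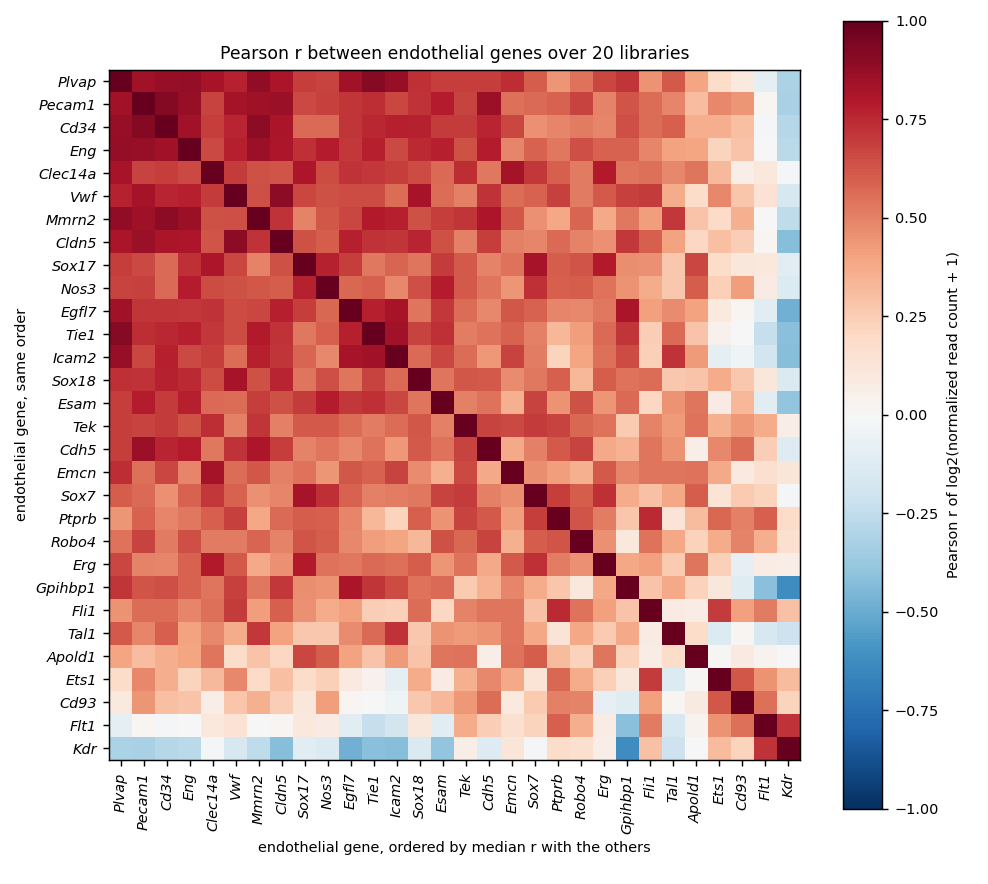
Pearson r of log2(normalized read count + 1) between each pair of the 30 endothelial genes over 20 libraries, both axes in the order of the median r with the others. Most pairs are positive (401 of 435), with Plvap (median 0.693) first, while the last 2 rows, Flt1 and Kdr, are near 0 or below against most genes and share an r of 0.719.

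Markers of other cell types moved with the endothelial genes over the libraries. The 10 fibroblast and stellate genes, all tested, summed to between 2066 and 48232 normalized read counts, a 23.3-fold range (5929 to 38683 in knockout, 2066 to 48232 in wild-type), and none of them differed by genotype past the test. Their log2 sum had a positive r past the adjusted p with 16 of the 30 endothelial genes, against 5.85% of all genes, and a negative r with none, against 2.3%. Vwf (r 0.8995, rho 0.883, permutation adjusted p = 0.00084) and Pecam1 (r 0.898, rho 0.932, permutation adjusted p = 0.00084) were the highest, and Kdr the lowest at -0.355 (permutation adjusted p = 0.32). With the fibroblast sum and the genotype means removed from each gene, none of the 29 genes passed with Pecam1 (0% of all genes did), at a median r of 0.317, and the median over pairs was 0.240. That removal was added after the data had been seen. Wild-type 19, the lowest of all libraries for the fibroblast sum, was also the lowest wild-type library for Pecam1, Vwf and Cldn5. Whether the shared movement comes from endothelial cells, from the other cells or from both was not tested.

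The 14 pericyte and smooth muscle genes, for cells that wrap vessels, had a positive r with 20 of the 30 endothelial genes, against 4.83% of all genes, and a negative r with none, against 1.16%, and their sum ran from 2822 to 15448. The 14 macrophage genes had a positive r with 14 and a negative r with 1, Kdr (-0.593, permutation adjusted p = 0.032), against 10.9% and 11.8% of all genes. No macrophage gene differed by genotype past the adjusted p. An unadjusted limma p under 0.05 was reached by 3 of the 14, against 8.94% of all genes. They were Adgre1 (log2 fold change 0.95), Aif1 (1.37) and Tyrobp (0.74). Of the 14 estimates, 10 were positive and 4 negative, the lowest at -0.88. The part of macrophage genes in the endothelial values was not tested. The red cell sum, which ran over a 203-fold range with its highest value of 152027 in wild-type 14, passed with none of the 30, against 0.12% positive and 0.143% negative. Its median r with the 30 genes was still 0.453, beside 0.0259 for all genes. Egfl7 was the highest at 0.768 (permutation adjusted p = 0.055) and Kdr the lowest at -0.449. The acinar sum also passed with none, against 6.28% and 3.18% of all genes, and was lowest with Kdr at -0.589 (permutation adjusted p = 0.060). The islet endocrine sum passed with Flt1 alone, at -0.669 (permutation adjusted p = 0.030), against 2.57% of genes negative and 4.13% positive. Blood cells can also carry Pecam1, Vwf or Cd34. The 9 platelet genes summed to 179 to 518 in knockout and 240 to 500 in wild-type, with means from 0.73 for Ppbp to 81.3 for Itga2b and 135 for Gp1bb. The 10 lymphocyte genes summed to 60.2 to 375 in knockout and 70.0 to 483 in wild-type, most of it Lck (mean 137), with Cd3e at 3.27. The part of either in the endothelial values was not tested.

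**Figure D5:**
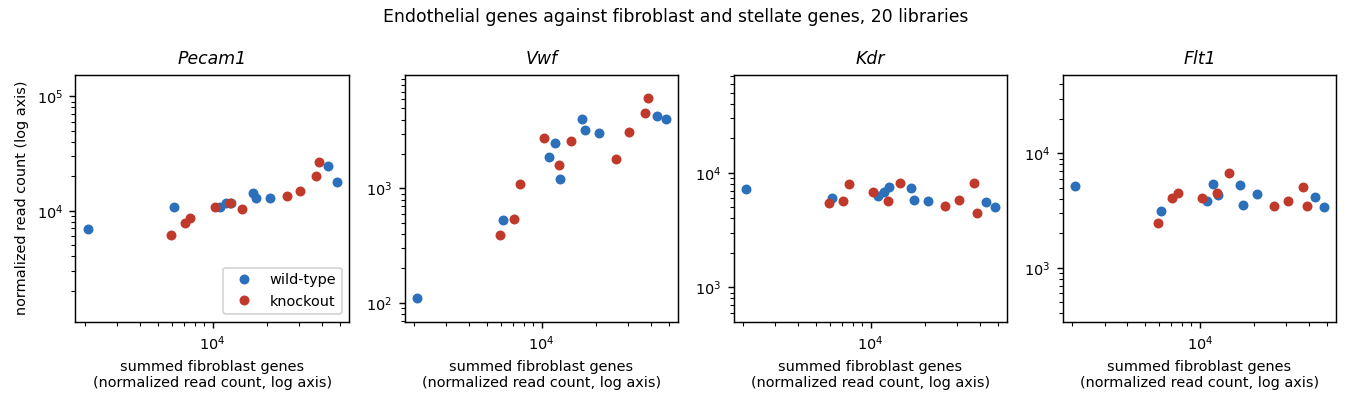
Normalized read count of Pecam1, Vwf, Kdr and Flt1 (y axes, log) against the summed fibroblast and stellate genes (x axes, log), each point a library. Pecam1 (r 0.898) and Vwf (r 0.8995) rise with the sum in both genotypes, and Kdr (r -0.355) and Flt1 (r -0.056) do not.

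The 10 genes outside the list with the highest Pearson r with the mean log2 level of the 30 endothelial genes were Aebp1 (0.972), Cavin1 (0.960), Vim (0.954), Igfbp4 (0.948), Mmp2 (0.943), Bgn (0.943), Mfap4 (0.938), C1s1 (0.936), Mustn1 (0.932) and Cavin3 (0.931). This is a description over the 20 libraries, and genes of wide spread, such as Cldn5 and Vwf, weigh most in that mean. With equal weights for the endothelial genes, the r of these 10 genes ran from 0.890 for Mustn1 to 0.947 for Aebp1. Several of them, such as Aebp1, Mmp2, Bgn and Mfap4, are known as genes of connective tissue, and Cavin1 and Cavin3 as coats of caveolae, a kind of membrane pit. None differed by genotype past the adjusted p.

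The wider vascular gene lists gave the same count for genotype. Of 112 genes in 9 lists outside the 30 genes, none passed the adjusted p of 0.05 in limma, against 0.28% of all genes. An unadjusted p under 0.05 was reached by 6 of them (5.36%), against 8.94% of all genes, so the following values are given as a description. Pgf, a Vegf-family ligand of Flt1, had values of 278, 539 and 635 in knockout and 132, 361 and 461 in wild-type. Its knockout median lay above the highest wild-type value, at a log2 fold change of 0.56 (SE 0.20, limma p = 0.0094, adjusted p = 0.38). Aplnr, the apelin receptor, was at -0.94 (SE 0.37, adjusted p = 0.44), Notch1 at -0.34 (SE 0.15, adjusted p = 0.52), and Ramp3, a partner of the adrenomedullin receptor, at 0.48 (SE 0.22, adjusted p = 0.54). Reln, made by lymphatic endothelium, was at 0.55 and Lamc1, a laminin chain of basement membranes, at -0.27. The other genes with the smallest p-values of each list were, among the ligands, Angpt1 (1.07) and Fgf1 (0.27), among the receptors Unc5b (-0.30) and Nrp2 (-0.24), and in the Notch pathway Jag1 (-0.40) and Hey1 (0.30). Without wild-type 19, Angpt1 was at 0.53 and Hey1 at 0.024. With all libraries, edgeR gave 0.54 and DESeq2 0.55 for Angpt1. Esm1 (0.26), Ptprm (-0.22) and the caveola genes Cav2 (0.36) and Cavin2 (0.38) did not pass either. Nor did Nr2f2 (0.44), Gja4 (-0.36) and Stmn2 (0.42) of the arterial and venous list, or Lyve1 (-0.48) and Prox1 (-0.22) of the lymphatic list. In whole-islet RNA, the cell type behind the values of these lists was not tested.

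Of 15 tested Vegf, angiopoietin and related ligands 9 had positive estimates, of 16 further angiogenic receptors 10, of 11 Notch pathway genes 7, and of 30 other endothelial genes 19. The medians of these 4 lists were 0.047, 0.077, 0.11 and 0.055. In the vascular basement membrane list 11 of 14 estimates were negative, at a median of -0.13, with Col4a2 at -0.28 and Hspg2 at -0.24, neither past the test. Of all genes tested, 49.6% had positive estimates. The signs within a list are not separate observations, since its genes share the libraries, and no list was tested as a whole. Leukocyte adhesion genes were sparse, and Selp, which brings leukocytes to activated endothelium, reached 4514 in wild-type 20 against a wild-type median of 151, at a log2 fold change of -0.64, or -0.11 without that library. Vcam1 was at 0.89, or 0.22 without wild-type 19, and Icam1 at -0.15, or 0.058 without wild-type 20. With Pecam1, 14 of the 30 other endothelial genes, 6 of 8 caveola genes, 5 of 5 leukocyte adhesion genes and 10 of 10 fibroblast genes had a positive r past the adjusted p, beside the 5.77% of all genes. Among the ligands it was 5 of 15, the further receptors 7 of 16, the Notch pathway 2 of 11 and the basement membrane list 5 of 14. For arterial and venous genes it was 5 of 8, and for lymphatic genes 4 of 7.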

How the data were processed

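RNA-seq libraries of 10 knockout and 10 wild-type islet samples were made with TruSeq RNA v2 reagents, per the labels' protocols; that kit keeps no strand information. The deposited values are a signal unit, reads per gene that the authors scaled by 1 size factor per library. DESeq 1.16.0, TopHat 1.3.3, Bowtie 0.9.9, Cufflinks 1.3.0, FastQC and the build mm9 are listed in the submitters' processing notes; the counter of reads and its annotation are not given there. GENCODE M21, on GRCm38, named 23950 of 26211 genes, the 30 endothelial genes included, and gave exon lengths (basic set; all transcripts as an alternative added after the data were seen). In it 5 of the 30 genes, Cd34, Egfl7, Eng, Nos3 and Sox17, share exon bases with another gene, so their reads may be uncertain. Values were whole multiples of 1 step per library for 100% of values (tolerance 0.05 reads), which returned the reads and the depth.

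The test was limma 3.58.1 in R 4.3.3 (lmFit, eBayes with a mean trend) on log2(value + 1). For low genes, estimates on this scale lay on either side of those from edgeR and DESeq2. Angpt1 was at 1.07 in limma against 0.54 in edgeR and 0.55 in DESeq2, and Tal1 at 0.27 against 0.47 and 0.48. The mean of each of the 17482 tested genes reached 10, and genotype was the only term. In simulated data for this comparison over 17482 genes, 2% of 1.5-fold, 20% of 2-fold and 76% of 4-fold changes were recovered. Permutation tests were two-sided with 100000 resamples (Python 3.11.15, numpy 2.4.6, scipy 1.17.1, pandas 2.3.3). Correlations were adjusted over all genes, in place of the adjustment over the list that had been planned. Relations with Kdr and with summed lists were added after values had been seen. Genes given in full were Pecam1, Cdh5, Kdr, Flt1, Tek and Plvap, those past the threshold, the 8 smallest p-values, the 2 largest and 2 smallest absolute fold changes and the lowest r with Pecam1; of every other list, the 3 smallest p-values, of which those of non-vascular cell types are named only where a result turns on them. Alternatives were pseudocounts of 0.5 and 10, a mean of at least 100 or no filter, TMM factors, quantile normalization, robust eBayes and an acinar covariate. The others were edgeR 4.0.16, DESeq2 1.42.0, and each library left out in turn. The 30 genes and the lists were chosen with earlier results of these data known.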

Additional observations from a re-analysis of the deposited data

Results flagged for a closer look

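Within each genotype, the highest and the lowest library of each of the 30 endothelial genes were compared with the rest by Dixon's ratio, the gap to the nearest library over the range of the group. On the log2 scale, 4 of 60 groups passed the 95% critical value for 10 libraries, and chance gives about 1 in 20. All 4 were low libraries: Sox7 was 10.83 in wild-type 16 (next library 34.5), Fli1 13.998 in wild-type 19 (next 40.1), Gpihbp1 24.26 in wild-type 19 (next 93.6) and Tal1 5.822 in knockout 2 (next 44.6). On the linear scale of the normalized read counts, added after the data were seen, 7 of 60 groups passed, all of them high libraries. In knockout 10 these were Egfl7 at 30259 (next 15833), Cldn5 at 327.3 (next 65.1), Gpihbp1 at 852.7 (next 408) and Icam2 at 1453 (next 748). In wild-type 14 they were Tie1 at 3071 (next 2486) and Cldn5 at 179.6 (next 53.2), and in wild-type 20 Nos3 at 880.0 (next 589). No group passed on both scales, so which end stands apart depends on the scale.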

How the results depend on the processing

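No endothelial gene passed under any alternative run, and neither did any gene of the other vascular lists. Over all genes, the count of 49 became 29 with a mean of at least 100, 77 with the acinar share as a covariate, 137 with DESeq2, and 27 to 73 with single libraries left out. The filter settings and robust eBayes leave a limma fold change as it is, so its sign could not differ under them. Of 416 log2 fold changes of 42 named genes under settings other than leaving out a library, these included, 406 kept their sign. The others were Kdr at 0.0276 with the acinar covariate, 0.0028 in edgeR and 0.0052 in DESeq2, Eng at -0.008 with TMM factors and -0.0115 with the acinar covariate, Selp at 0.07 in DESeq2, and Cldn5 at 0.0601 with a pseudocount of 10, 0.1855 with quantile normalization, 0.4613 in edgeR and 0.4733 in DESeq2. With single libraries left out, the sign changed for Pecam1 (-0.2244 to 0.011), Kdr (-0.0569 to 0.0409), Flt1 (-0.1213 to 0.0369), Tek (-0.0282 to 0.1143), Eng (-0.0394 to 0.0541), Cldn5 (-0.4873 to 0.4797) and Icam1 (-0.2882 to 0.0577), none of which was past the test. The cause was not tested. The 18 genes that covaried with Pecam1 became 10 without the 2 farthest libraries, 10 to 19 with single libraries left out, and 0 with the fibroblast level and genotype means removed. The permutation p of P2ry14 ran from 5e-05 to 0.00049. No paired analysis was possible because the wild-type columns carry the numbers 11 to 20, while the labels number wild-type samples 1 to 10. Counting error limits the sparse genes most, Cldn5, Sox7, Tal1 and Fli1 among them.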
